A study of Mus musculus with 6 samples.

Results

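The kinesins are motor proteins that walk along microtubules, and 36 rows of the deposited gene-level table carried a kinesin name: KIF with a number and optional letters, or KIFC1 to KIFC3. The table had 31488 rows with a single identifier. Of the 36 kinesins, 25 were detected, meaning that at least 1 probe had a detection p under 0.05 against the negative controls on 3 or more of the 6 arrays. By function they were divided into 11 mitotic kinesins, of which 8 were detected, 17 transport kinesins, of which 14 were detected, and 8 other kinesins, of which 3 were detected. The rule that found the rows used names and detection only, not the difference between treatments. The kinesins and their classes, however, were chosen with earlier results of these data known.

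The RNA came from mouse gastrointestinal stromal tumours (GIST), sarcomas of the gut wall in which mutant, constantly active KIT, a receptor tyrosine kinase, is the usual driver. There were 3 samples of tumours treated with imatinib, a small-molecule inhibitor of KIT and related kinases, and 3 samples of tumours treated with vehicle, both injected into the peritoneum. The genotype of all 6 tumours is labelled Kit V558Δ/+ and the strain C57Bl/6, and the age given was 6 weeks. The comparison asks which transcripts differ after the drug. The labels state neither dose nor duration, and while each sample has its own tumour number, they do not say whether each tumour is from a different mouse, so the p-values below speak only for the variation among these 6 tumour samples.

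A kinesin couples the hydrolysis of ATP to movement along a microtubule or to the removal of tubulin from its end. Mitotic kinesins build the spindle, align the chromosomes and organise the midzone on which cytokinesis depends, and their transcripts are made mainly in G2 and mitosis. Transport kinesins carry vesicles, organelles and ciliary cargo in interphase cells, and several of them are best known from the long axons of neurons. Promoters of mitotic genes often hold a cell cycle genes homology region (CHR) near the start of transcription, commonly together with CCAAT boxes. In quiescent cells the CHR is bound by the repressive DREAM complex, and in dividing cells by complexes that contain B-MYB and FOXM1.

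Promoter windows from 250 bases before to 50 bases after the start were given by RefSeq (GRCm38.p6) for 29 of the 36 kinesin genes. A gene with several starts counts once, if any of its windows holds the letters. The windows were searched on both strands for the CHR letters TTTGAA or TTCGAA, for CCAAT, and for the E2F letters TTTCGCGC, TTCCCGCC or TTTGGCGC. CHR letters were present in 7 of the 8 detected mitotic kinesins (87.5%), against 0 of the 9 detected transport kinesins that had a window and 21.7% of all 27025 genes with a window. Within 30 bases of the start they were present in 6 of the 8 mitotic kinesins (75.0%) and in 3.7% of all genes, a distance that was chosen after the positions had been seen. CCAAT was present in 5 of the 8 mitotic kinesins (62.5%), in 3 of the 9 transport kinesins (33.3%) and in 41.1% of all genes. E2F letters were present in 2 of the 8 mitotic kinesins, in 0 of the 9 transport kinesins and in 3.39% of all genes. A match is a run of letters and not a measured binding site.

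The stretches below run from 100 bases before the start for 130 bases, 5′ to 3′ on the gene's own strand, and the capitals mark the motif letters found on either strand. Of the mitotic kinesins 6 are shown, since CHR letters lie next to the start in all of these but Kif18a, and Kif3b is shown as a transport kinesin with a CCAAT box and no CHR letters. In Kif23 and Kif3b the start lay inside the annotated gene, downstream of its outermost end. Kif11 (chr19:37376282-37376411, plus strand) holds CCAAT at -45 to -41 and CHR letters at -19 to -14, counted from the start base as 0. Kif23 (chr9:61946770-61946899, minus strand) holds CCAAT at -7 to -3 and CHR letters at 2 to 7. Kif4 (chrX:100625965-100626094, plus strand) holds CCAAT at -5 to -1 and CHR letters at 19 to 24. In Kif15 (chr9:122950981-122951110, plus strand) the E2F letters at -27 to -20 adjoin the CHR letters at -19 to -14. Kifc1 (chr17:33890604-33890733, minus strand) holds 3 CCAAT boxes and CHR letters at 1 to 6. Kif18a (chr2:109280638-109280767, plus strand) holds E2F letters at -10 to -3 and no CHR letters in its window, and Kif3b lies at chr2:153291316-153291445, plus strand.
Kif11: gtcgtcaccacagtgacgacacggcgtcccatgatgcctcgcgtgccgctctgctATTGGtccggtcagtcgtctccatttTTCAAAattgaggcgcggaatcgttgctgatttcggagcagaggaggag
Kif23: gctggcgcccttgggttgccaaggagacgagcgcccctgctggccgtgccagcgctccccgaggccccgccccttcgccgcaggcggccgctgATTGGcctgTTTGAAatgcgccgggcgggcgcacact
Kif4: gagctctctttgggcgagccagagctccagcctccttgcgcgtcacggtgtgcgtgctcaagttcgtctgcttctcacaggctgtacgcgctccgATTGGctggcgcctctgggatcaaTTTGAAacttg
Kif15: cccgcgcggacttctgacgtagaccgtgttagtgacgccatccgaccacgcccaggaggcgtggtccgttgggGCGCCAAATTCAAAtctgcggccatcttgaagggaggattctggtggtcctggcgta
Kifc1: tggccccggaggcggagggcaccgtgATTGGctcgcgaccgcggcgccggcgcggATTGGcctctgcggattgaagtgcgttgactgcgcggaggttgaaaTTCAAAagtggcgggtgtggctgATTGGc
Kif18a: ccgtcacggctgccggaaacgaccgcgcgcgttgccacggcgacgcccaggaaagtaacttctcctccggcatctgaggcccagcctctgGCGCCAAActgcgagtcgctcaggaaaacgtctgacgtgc
Kif3b: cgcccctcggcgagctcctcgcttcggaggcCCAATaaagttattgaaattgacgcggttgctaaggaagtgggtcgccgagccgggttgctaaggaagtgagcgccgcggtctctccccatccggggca

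**Figure D1:**
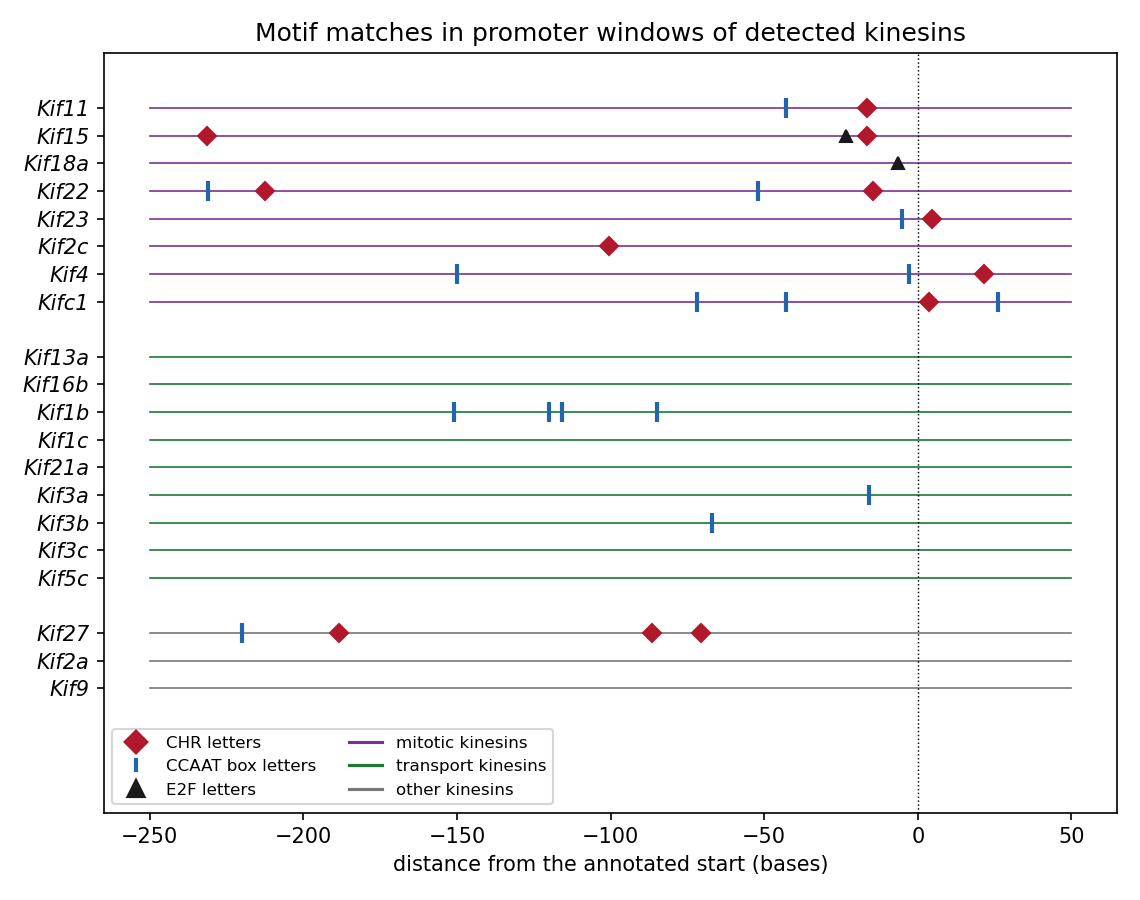
Position of CHR, CCAAT and E2F letters in the promoter windows of the detected kinesins, as distance in bases from the annotated start (dotted line). Each horizontal line is the window of 1 gene, with 2 windows laid over each other for Kif1b, Kif2a and Kif9. CHR letters lie within 30 bases of the start in 6 of the 8 mitotic kinesins, and in none of the 9 transport kinesins do they occur.

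The remaining windows differed in position or in kind. In Kif22 CHR letters lay at -17 to -12 and at -215 to -210, with CCAAT at -54 to -50, and in Kif2c they lay farther out, at -103 to -98. Among the undetected kinesins, Kif14 held CHR letters at -228 to -223, Kif24 at -26 to -21, Kif26b at -9 to -4 and Kif1a at -44 to -39. Kif27, one of the other kinesins, held 3 runs of CHR letters, none within 30 bases of the start. Kif13b, Kif20a, Kif21b, Kif5a, Kif5b, Kifc2 and Kifc3 had no window in the set searched. The 9 detected transport kinesins with a window thus leave out Kifc2 and Kif5a, which were called higher as given below.

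Between 21268 and 21439 of the 45281 probes were detected on the imatinib arrays, against 20684 to 20923 on the vehicle arrays, and the median probe was read on 43 beads. Levels are given as log2 signal after background correction and quantile normalisation. A called gene is one with an adjusted p under 0.05 in limma's moderated test over all 14713 genes (Benjamini-Hochberg adjustment). Of these, 232 genes were called (1.58%), 155 lower with imatinib (1.05%) and 77 higher (0.523%), and the median log2 change was 0.04. The calls depended on single arrays. With limma, 0 genes were called without imatinib 1, imatinib 3, vehicle 1 or vehicle 3 (2475, 2412, 2854 and 2403 genes at an unadjusted p under 0.05), 286 without imatinib 2 and 1360 without vehicle 2. Vehicle 1 stood apart in gut wall markers: relative to the mean of the 6 arrays, the intestinal epithelium list lay at -1.46 and the smooth muscle list at -1.10 on vehicle 1. The other vehicle arrays lay at 0.66 and -0.27 in the first list and at 0.40 and -0.17 in the second. Kit averaged 13.94 ± 0.50 in imatinib samples and 14.25 ± 0.20 in vehicle samples (SD, n = 3 each), and Etv1, a lineage transcription factor of GIST, averaged 13.18 ± 0.39 in imatinib samples and 13.09 ± 0.11 in vehicle samples. Both were detected on all 6 arrays. Of the 5 measured genes of the GIST and Cajal cell list, 4 had a lower mean with imatinib, and the median log2 change was -0.30. Of these 4, 1 had an unadjusted limma p under 0.05 (Prkch, -0.30 ± 0.11, adjusted p = 0.163), which 12.6% of all genes met with a lower mean. None of the 5 was called.

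All 8 detected mitotic kinesins had a lower mean in imatinib samples (as 45.7% of all genes did), by 1.45-fold (Kif15) to 2.20-fold (Kif11), but none was called. Their adjusted p-values lay between 0.0544 and 0.129, and 6 of the 8 were under 0.1. All 8 had an unadjusted limma p under 0.05 with a lower mean, a count that 12.6% of all genes met. In all 8 the 3 imatinib arrays lay below the 3 vehicle arrays without overlap, which 14.5% of all genes did. The median log2 change of the class was -0.90, against 0.04 over all genes tested. These counts depend on the class list, which leaves out Kif2a, a relative of Kif2c with overlapping groups that is given below. In tumour RNA, fewer dividing cells and less transcript per cell cannot be told apart.

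Kif11 encodes the plus-end motor that slides spindle microtubules apart and keeps the spindle bipolar. Its log2 signal was 5.93, 6.34 and 5.55 on the imatinib arrays, against 7.56, 6.75 and 6.91 on the vehicle arrays. Imatinib 2 and vehicle 2 came within 0.41 of each other, and the groups did not overlap. The log2 change was -1.14 ± 0.28 (SE, limma adjusted p = 0.0801). On the uncorrected scale its signals were 81.1, 114 and 68.5 on the imatinib arrays, against 217, 133 and 151 on the vehicle arrays, and the probe was detected on all 6. Another Kif11 probe, in a row named KNSL1, was detected on no array.

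Kif23 encodes the motor of centralspindlin, the complex that bundles midzone microtubules and directs the cleavage furrow. Its log2 signal was 10.12, 9.67 and 9.79 on the imatinib arrays, against 11.20, 10.79 and 10.62 on the vehicle arrays. The lowest vehicle array lay 0.50 above the highest imatinib array. The log2 change was -1.01 ± 0.20 (limma adjusted p = 0.0583), a 2.01-fold lower mean. A second Kif23 probe had 7.24, 7.08 and 7.4 on the imatinib arrays, against 8.85, 8.37 and 8.24 on the vehicle arrays. When every kept probe was tested on its own, this probe was lower by a log2 change of -1.25 ± 0.19 (adjusted p over probes = 0.0377), where 1.69% of all kept probes were called lower and 0.636% higher. Another Kif23 probe, in a row named KNSL5, had a log2 change of -0.58 ± 0.21 (adjusted p over probes = 0.143).

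Kif18a, which works at the plus ends of kinetochore microtubules and limits chromosome oscillations, had the smallest p of the class. It had 6.89, 6.86 and 6.72 on the imatinib arrays, against 8.12, 7.49 and 7.78 on the vehicle arrays. The imatinib values were tightly grouped, and the log2 change was -0.97 ± 0.18 (limma adjusted p = 0.0544). Kif4, a chromokinesin that also shapes the midzone with Prc1, had 6.98, 6.57 and 6.84 on the imatinib arrays, against 8.18, 7.63 and 7.53 on the vehicle arrays. Its log2 change was -0.98 ± 0.21 (adjusted p = 0.0633). The further Kif4 probes had -0.95 ± 0.14 (adjusted p over probes = 0.0365, called) and -1.02 ± 0.25 (adjusted p over probes = 0.0755), so all 3 Kif4 probes showed a difference of like size.

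Kif2c encodes MCAK, which removes tubulin from microtubule ends at centromeres and so corrects faulty attachments. Its log2 signal was 6.66, 6.43 and 6.62 on the imatinib arrays, against 7.42, 7.06 and 7.15 on the vehicle arrays, a change of -0.64 ± 0.14 (limma adjusted p = 0.0654). Kif22, a chromokinesin that pushes chromosome arms towards the spindle equator, had 7.81, 7.28 and 7.57 on the imatinib arrays, against 8.76, 8.25 and 8.15 on the vehicle arrays. Its change was -0.83 ± 0.21 (adjusted p = 0.0863). The minus-end motor Kifc1, which focuses spindle poles, had a change of -0.83 ± 0.25 (adjusted p = 0.109), and Kif15, which can help Kif11 to hold the spindle bipolar, had -0.54 ± 0.18 (adjusted p = 0.129).

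The spread was not even between the groups. Vehicle 1 gave the highest value of the 6 arrays in 7 of the 8 mitotic kinesins, Kif15 being the exception, and the SD over vehicle arrays exceeded that over imatinib arrays in all 8. The standard error over the beads of a probe was 2.39% to 7.94% of the signal. Without vehicle 1 the median log2 change of the class was -0.70, and all 8 means were still lower. Without vehicle 2, Kif18a (adjusted p = 0.0319), Kif23 (0.049), Kif2c (0.0463) and Kif4 (0.05, just under the threshold) were called, all lower, in a fit in which 9.4% of genes were called.

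**Figure D2:**
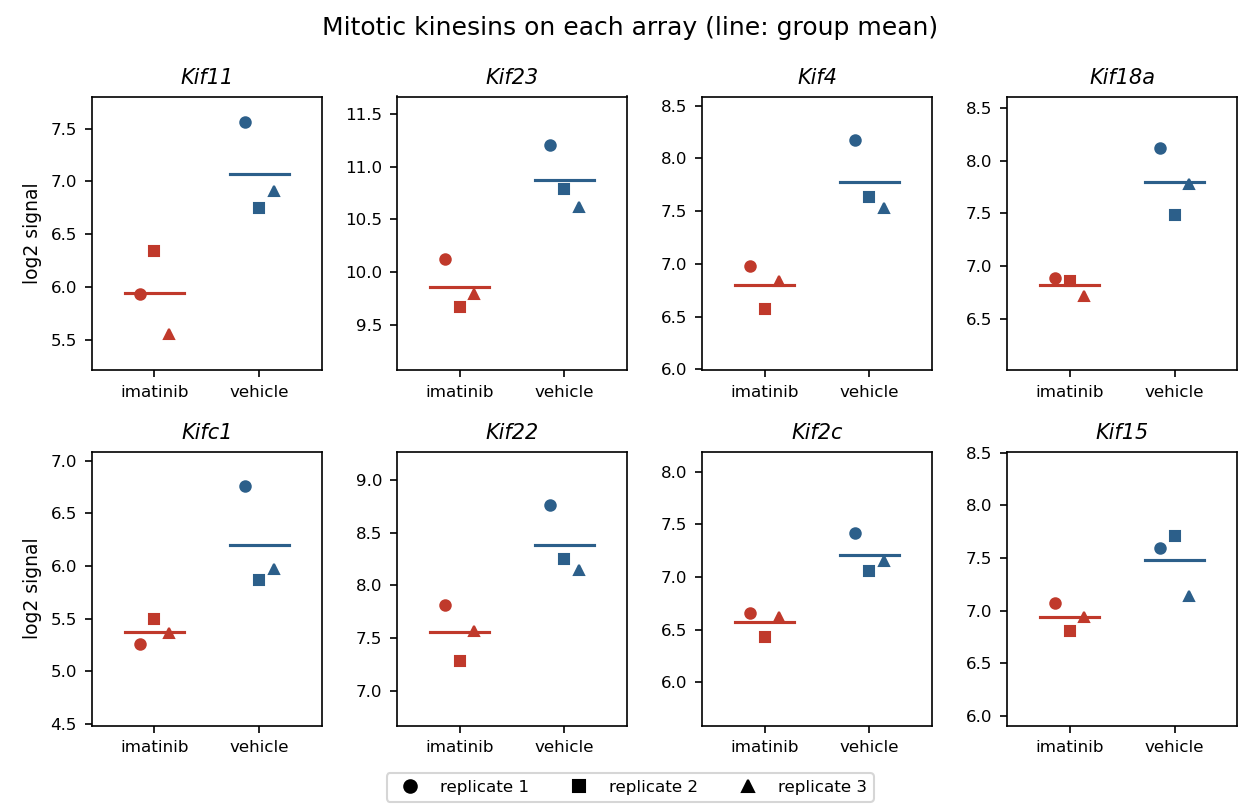
Log2 signal of the 8 detected mitotic kinesins on each array, imatinib left and vehicle right, with marker shape for the replicate number and a line at the group mean. The vertical range is the same length in every panel. In all 8 panels the imatinib points lie below the vehicle points, and vehicle 1 (circle) is the highest point in 7.

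Kinesins that the array lists under other names were not covered by the rule, and their values were read from the same fit. Kif18b, a plus-end partner of Kif2c, had 6.18, 5.84 and 5.94 on the imatinib arrays, against 7.64, 7.32 and 6.81 on the vehicle arrays, a change of -1.27 ± 0.23 (limma adjusted p = 0.053). When every kept probe was tested on its own by limma, this Kif18b probe was called lower (adjusted p over probes = 0.0471), as 1.69% of kept probes were. The further Kif18b probes had changes of -1.14 (adjusted p over probes = 0.0528) and -0.50 (0.245) and were not called. Kif20b, a cytokinesis kinesin listed as MPHOSPH1, had 7.95, 7.43 and 7.70 on the imatinib arrays, against 8.92, 8.26 and 8.50 on the vehicle arrays, a change of -0.87 ± 0.22 (adjusted p = 0.08). Kifc5b had a change of -0.68 ± 0.23 (adjusted p = 0.141), but it is a near copy of Kifc1 and their probes may share transcripts. Stard9, which the array lists as KIF16A and again under a clone name, was detected on all 6 arrays by a probe of the clone row, with 7.78, 7.83 and 7.57 on the imatinib arrays, against 8.05, 7.48 and 7.68 on the vehicle arrays. Its change was -0.01 ± 0.17 (adjusted p = 0.979), and a further probe had -0.09 ± 0.21. These genes were picked by name after the main results were known, and none was called over genes. The centromere motor Cenpe, also a kinesin, was detected on no array. Nor were the rows of Kif6 and Kifc5c-ps, or the rows of Kif11, Kif14, Kif15 and Kif26b under other names.

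Of the 14 detected transport kinesins, 2 rose, none fell and 12 did not pass, against 0.523% of all genes called higher and 1.05% called lower. The 2 were Kifc2 and Kif5a. Of the 14, 9 had a higher mean (54.3% of all genes) and 5 a lower mean in imatinib samples, and the median log2 change was 0.17, against 0.04 over all genes. An unadjusted limma p under 0.05 was met by 4 with a higher mean, where 13.8% of all genes met it, and by 2 with a lower mean. The groups did not overlap in 4 kinesins with a higher mean and in 2 with a lower mean, where 17.4% and 14.5% of all genes did so.

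Kifc2 encodes a C-terminal motor that was described in mouse neurons, where it serves transport in dendrites and axons. Its log2 signal was 8.20, 8.02 and 8.4 on the imatinib arrays, against 6.97, 7.04 and 6.81 on the vehicle arrays. The lowest imatinib array lay 0.98 above the highest vehicle array, the widest gap of any kinesin. Kifc2 rose 2.41-fold (log2 change 1.27 ± 0.14 SE, limma adjusted p = 0.0339, a value that adjustment gave alike to other genes; by unadjusted p it ranked 27 among all genes). It was called in 11 of 17 alternative fits, and its log2 change over the 17 ranged between 0.71 and 1.40. Among the 11 were the fit with array weights, which called 51.6% of all genes, and that without vehicle 2 (9.4%). It was not called without imatinib 1 (limma adjusted p = 0.132), imatinib 3 (0.111), vehicle 1 (0.0942) or vehicle 3 (0.167). Nor was it without a detection filter (0.0522) or with the replicate number as a block (0.148). In each of these fits no gene of the array was called. Only 1 of its 2 probes was detected.

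Kif5a encodes the neuronal heavy chain of conventional kinesin, which carries neurofilaments and vesicles along axons. It was dim, with 6.16, 6.63 and 6.42 on the imatinib arrays, against 4.92, 5.46 and 5.26 on the vehicle arrays, and was detected on 3 imatinib arrays and 2 vehicle arrays. Kif5a rose 2.28-fold (log2 change 1.19 ± 0.19, limma adjusted p = 0.0472). The call was close to the threshold and was made in 7 of 16 alternative fits. These included array weights (51.6% of all genes called) and the fit without vehicle 2 (9.4%). The call was lost on leaving out imatinib 1 (limma adjusted p = 0.133), imatinib 2 (0.0634), imatinib 3 (0.144), vehicle 1 (0.113) or vehicle 3 (0.181). It was also lost without a detection filter (0.0659), with the replicate number as a block (0.148) and in the authors' processed values (0.161). Only 1 of its 3 probes was detected. In the authors' gene-level values, which carry background and average all 3 probes, the change was 0.37 (limma adjusted p = 0.123). The related heavy chain Kif5c had 7.4, 7.52 and 7.31 on the imatinib arrays, against 7.6, 7.98 and 7.65 on the vehicle arrays, with a change of -0.34 ± 0.14 (adjusted p = 0.199).

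The other members with low p-values went both ways. Kif1b, which carries mitochondria and synaptic vesicle precursors, had 11.43, 11.25 and 11.47 on the imatinib arrays, against 10.91, 11.01 and 10.91 on the vehicle arrays. Its change was 0.44 ± 0.11 (limma adjusted p = 0.0807), and of its further kept probes the changes were 0.37, -0.07, 0.13 and 0.48. Kif21a, a kinesin that restrains microtubule growth, had 6.76, 7.15 and 7.13 on the imatinib arrays, against 5.64, 6.63 and 6.22 on the vehicle arrays, a change of 0.85 ± 0.27 (adjusted p = 0.118). Vehicle 1 was its lowest array, and without vehicle 2 it was called (adjusted p = 0.0459).

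Kif3b, a subunit of the heterotrimeric kinesin of ciliary transport, had the lowest p among members with a lower mean. It had 8.81, 8.95 and 8.79 on the imatinib arrays, against 9.32, 9.27 and 9.16 on the vehicle arrays, a change of -0.39 ± 0.11 (limma adjusted p = 0.0966). Kif16b, which moves early endosomes, had 5.27, 5.92 and 5.58 on the imatinib arrays, against 6.31, 5.85 and 6.46 on the vehicle arrays, a change of -0.61 ± 0.23 (adjusted p = 0.158). In Kif16b the groups overlapped, since imatinib 2 lay above vehicle 2. The partner subunit Kif3a had a change of 0.10 ± 0.16 with a 95% interval of -0.29 to 0.50, and Kif3c, the alternative partner, had 0.23 ± 0.16.

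The remaining transport kinesins had changes of 0.25 ± 0.15 (Kif13b), 0.23 ± 0.12 (Kif1c), -0.12 ± 0.12 (Kif21b) and -0.20 ± 0.13 (Kif13a). Kifc3, a minus-end motor of epithelial cells, had a mean of 5.63 in both groups, and the 95% interval of its log2 change was -0.37 to 0.38. None of these 5 was called and in all 5 the groups overlapped. Of 11 further kept probes of transport kinesins, 9 had the sign of the probe tested.

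**Figure D3:**
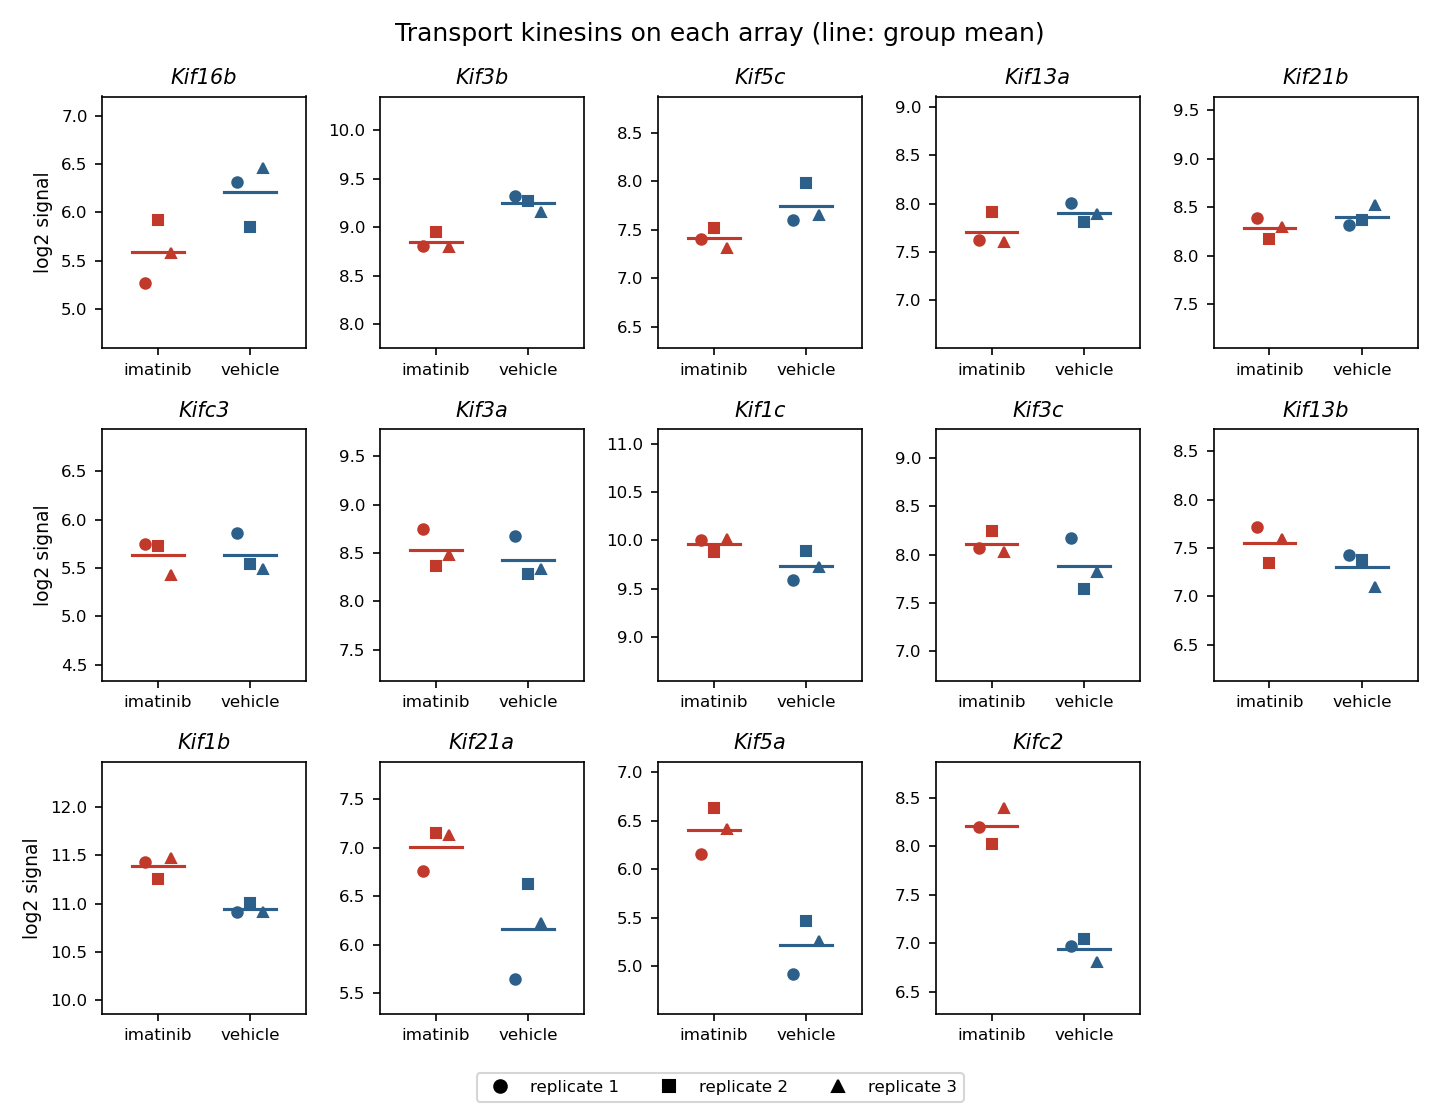
Log2 signal of the 14 detected transport kinesins on each array, imatinib left and vehicle right, ordered by log2 change, with marker shape for the replicate number and a line at the group mean. The vertical range is the same length in every panel. Kif5a and Kifc2, the 2 called genes, show the imatinib points above the vehicle points by at least 0.70.

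The 3 other detected kinesins were not called and had lower means with imatinib. Kif27, a relative of the Hedgehog regulator Kif7, had 5.06, 5.12 and 4.84 on the imatinib arrays, against 5.4, 5.41 and 5.18 on the vehicle arrays, a change of -0.32 ± 0.13 (limma adjusted p = 0.181), but a second probe had 0.21 ± 0.16. Kif9, which acts in motile cilia and flagella, had 5.06, 4.64 and 4.71 on the imatinib arrays, against 5.50, 5.13 and 5.06 on the vehicle arrays, a change of -0.43 ± 0.18 (adjusted p = 0.186). Kif27 was detected on 5 arrays and Kif9 on 3, so both lay near background. Kif2a, a microtubule depolymerase related to Kif2c, had 7.61, 7.78 and 7.88 on the imatinib arrays, against 7.89, 7.83 and 7.96 on the vehicle arrays, a change of -0.14 ± 0.12 (adjusted p = 0.468). Its relatives Kif2b and Kif2c were classed as mitotic. With Kif2a among them the mitotic class would not be uniform, since its groups overlapped and its unadjusted limma p was 0.277.

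Over all 25 detected kinesins, 12 with a lower and 4 with a higher mean had an unadjusted limma p under 0.05, which 26.4% of all genes met in either direction. The same numbers of kinesins had groups without overlap, which 31.9% of all genes had in either direction. Set side by side, the classes differed on every array. The mean deviation of the mitotic kinesins from their 6-array mean was -0.32, -0.48 and -0.49 on the imatinib arrays, against 0.78, 0.28 and 0.24 on the vehicle arrays. For the transport kinesins it was 0.08, 0.13 and 0.10 on the imatinib arrays, against -0.11, -0.07 and -0.13 on the vehicle arrays. The mitotic class minus the transport class was thus -0.40, -0.61 and -0.59 on the imatinib arrays and 0.89, 0.35 and 0.37 on the vehicle arrays, with vehicle 1 the largest. The difference between classes was not tested, since kinesins of a class are not replicates. All 8 mitotic changes, from -1.14 to -0.54, lay below 13 of the 14 transport changes, Kif16b at -0.61 being the exception.

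**Figure D4:**
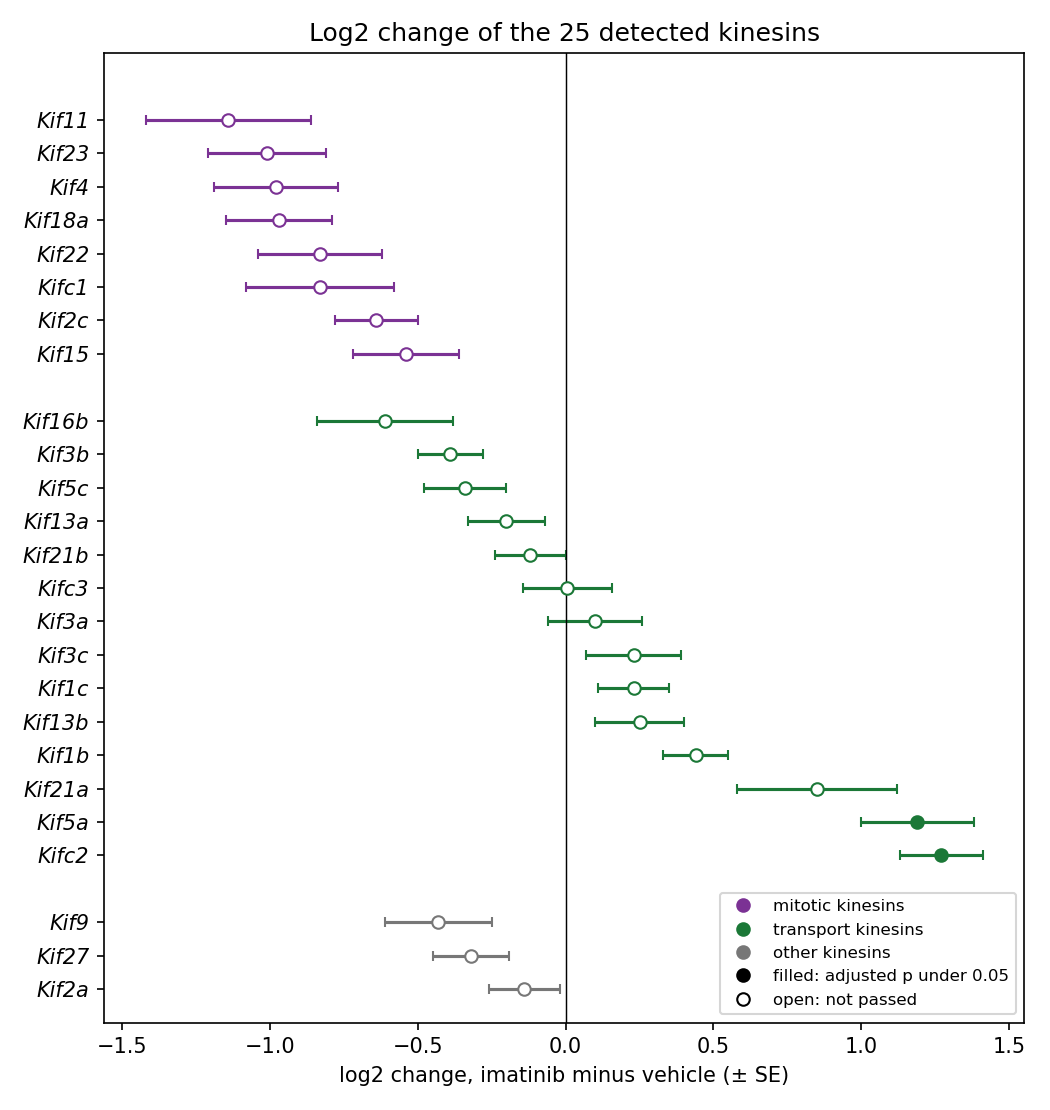
Log2 change (imatinib minus vehicle) with its standard error for the 25 detected kinesins, grouped by class and ordered by size. Filled points passed an adjusted p of 0.05. The mitotic kinesins lie between -1.14 and -0.54, and the transport kinesins between -0.61 and 1.27.

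The 11 undetected kinesins had 21 probes, and for 8 of them no probe passed the detection threshold on any array. Kif20a, which brings the chromosomal passenger complex to the midzone, had uncorrected signals of 44.8, 57.8 and 31.2 on the imatinib arrays, against 42.6, 54.4 and 45.4 on the vehicle arrays. Kif5b, the heavy chain of conventional kinesin made in most cells, had 35.7, 42.1 and 42.6 on the imatinib arrays, against 45.4, 40.5 and 47.3 on the vehicle arrays. Neither was above the negative controls, so these probes give no level for either gene. The same held for Kif14 and Kif2b (mitotic), Kif1a (transport), and Kif7, Kif12 and Kif24 (other). Kif17, a dendritic motor, was detected on 2 arrays, Kif26b on 1 and the KIF16A row (Stard9) on 2, although another row of Stard9 was detected on all 6, as given above. The uncorrected signals of the 21 probes lay between 26.3 and 68.5.

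Partners of the mitotic kinesins on the spindle and in cytokinesis were measured for 20 of 24 genes on the list. Of these, 3 fell and 17 did not pass, against 1.05% of all genes called lower. A lower mean was found in 19 of 20 (45.7% of all genes), and the median log2 change was -0.79. At an unadjusted limma p under 0.05, 15 had a lower mean (12.6% of all genes) and none a higher mean. Prc1, the midzone crosslinker to which Kif4 binds, had 9.57, 9.05 and 9.33 on the imatinib arrays, against 11.30, 10.59 and 10.62 on the vehicle arrays, and fell 2.87-fold (log2 change -1.52 ± 0.24, limma adjusted p = 0.0466). Tpx2, which activates Aurora A and nucleates spindle microtubules, had 7.25, 7.03 and 7.36 on the imatinib arrays, against 9.0, 8.36 and 8.46 on the vehicle arrays, and fell 2.63-fold (adjusted p = 0.0418). Cep55, the midbody organiser, had 7.0, 6.62 and 6.85 on the imatinib arrays, against 8.41, 8.04 and 8.0 on the vehicle arrays, and fell 2.52-fold (adjusted p = 0.0391). In these as in most mitotic kinesins vehicle 1 was the highest array. By limma, 10 of the list were called lower without vehicle 2, in a fit that called 9.4% of all genes, 1 without imatinib 2, in a fit that called 1.99%, and 0 with any other array left out, where no gene was called. The partner of Kif23 in centralspindlin, Racgap1, had a change of -0.11 ± 0.17 (adjusted p = 0.698) and was detected on 1 imatinib array and 3 vehicle arrays.

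The cargo adaptors of transport kinesins, 20 of 23 measured, held no called gene, with 10 higher and 10 lower means and a median log2 change of 0.01. By unadjusted limma p, 3 were under 0.05 with a higher mean, a share near the 13.8% of all genes, and none with a lower mean. The smallest p-values belonged to the kinesin light chain Klc3 (0.31 ± 0.10, adjusted p = 0.117) and to the axonal adaptor Fez1 (0.80 ± 0.27, adjusted p = 0.133). Dynein and dynactin, the minus-end counterpart of the kinesins, were measured for 19 of 23 genes with none called, a median of -0.05, and 2 lower and 1 higher at an unadjusted p under 0.05, where 12.6% of all genes were lower and 13.8% higher. The light chain Dynll1 had a change of -0.48 ± 0.10 (adjusted p = 0.0614) and the dynein regulator Nde1, which also acts in mitosis, had -0.58 ± 0.16 (adjusted p = 0.0968).

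Tubulins, the subunits of the track itself, were measured for 11 of 14 genes with none called, 5 lower (12.6% of all genes) and none higher at an unadjusted limma p under 0.05, and a median of -0.30. Tuba1a had 12.17, 12.70 and 11.94 on the imatinib arrays, against 13.43, 13.22 and 13.36 on the vehicle arrays, a change of -1.07 ± 0.21 (adjusted p = 0.0581). Tubb2b had 10.01, 10.77 and 9.93 on the imatinib arrays, against 11.25, 11.25 and 11.18 on the vehicle arrays, a change of -0.99 ± 0.23 (adjusted p = 0.0747). Tubb5, the main beta-tubulin of dividing cells, averaged 12.32 in both groups. Tubulin genes are close copies, and a probe may read more than 1 of them. Without imatinib 2, 2 tubulins were called lower, in a fit that called 1.99% of all genes, and without vehicle 2, 1 was, in a fit that called 9.4%.

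Some marker lists of other cell types separated the groups in their array means, and others did not. Of the enteric neuron and glia list 6 of 12 were measured, and 2 were called, both higher (0.523% of all genes). At an unadjusted limma p under 0.05, 5 had a higher mean (13.8% of all genes) and 1 a lower mean (12.6%). Sox10, a glial transcription factor, had 7.32, 7.45 and 7.14 on the imatinib arrays, against 5.78, 6.25 and 5.69 on the vehicle arrays, and rose 2.63-fold (limma adjusted p = 0.0411). Nos1, the synthase of nitrergic neurons, rose 2.03-fold (adjusted p = 0.0401), with 6.48, 6.57 and 6.73 on the imatinib arrays, against 5.54, 5.73 and 5.44 on the vehicle arrays. The neuronal genes Elavl4, Prph and Uchl1 had higher means without a call, and Ret had a lower mean (-1.36 ± 0.37, adjusted p = 0.0948). Gfap and S100b were detected on no array, and Chat and Tubb3 on 2 imatinib arrays each. The list lay at 0.05 to 0.49 on the imatinib arrays and at -0.49 to -0.17 on the vehicle arrays. This is the direction of Kifc2 and Kif5a, which are best known from neurons. The B cell and endothelium lists below lay in this direction too, while the related heavy chain Kif5c had a lower mean (-0.34 ± 0.14). The part of these lists in the rise of Kifc2 and Kif5a was not tested.

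Of the other lists, B cells had higher means in 6 of 6 measured genes (54.3% of all genes). Of these, 5 were at an unadjusted limma p under 0.05 (13.8% of all genes) and 2 were called (0.523% of all genes). Cd79a rose 3.14-fold (adjusted p = 0.0418), with 2 vehicle arrays above background. Vpreb3 averaged 6.25 in imatinib samples and 4.78 in vehicle samples (adjusted p = 0.0339), but it was detected on no vehicle array and passed the detection filter through the imatinib arrays alone, so its call is no separate evidence. The list lay at 0.40 to 0.73 on the imatinib arrays and at -0.86 to -0.36 on the vehicle arrays. In endothelium all 5 measured genes had higher means at an unadjusted limma p under 0.05 (13.8% of all genes). In all 5 the groups did not overlap, which 17.4% of all genes did with imatinib higher, and 2 were called (0.523% of all genes). Cldn5 rose 3.96-fold (adjusted p = 0.0418) and Sox17 rose 2.20-fold (adjusted p = 0.0472), and the list lay at 0.39 to 0.72 on the imatinib arrays and at -0.62 to -0.41 on the vehicle arrays. T cells had 0 of 6 called, 5 with a lower mean at an unadjusted p under 0.05 (12.6% of all genes), and lay at -0.71 to -0.10 on the imatinib arrays and at 0.34 to 0.36 on the vehicle arrays. The T cell list lay in the same direction as the mitotic kinesins, and its part in their lower means was not tested. In intestinal epithelium the crypt gene Olfm4 was called lower (adjusted p = 0.0339), with 4.61, 5.24 and 4.49 on the imatinib arrays, of which 1 was above background, against 7.26, 7.11 and 7.55 on the vehicle arrays. It passed the detection filter through the vehicle arrays, while the other 11 measured genes had higher means (54.3% of all genes) and none was called. The list lay at 0.20 to 0.50 on the imatinib arrays and at -1.46 to 0.66 on the vehicle arrays. Macrophages, smooth muscle and ciliated cells had no called gene by limma among 5, 4 and 2 measured. At an unadjusted p under 0.05 there were 1, 0 and 1, where 26.4% of all genes met it in either direction.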

How the data were processed

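Total RNA of 6 tumours was labelled with biotin and put on Illumina beadchips, with 1 array for each tumour, per the labels' protocols. Per the file headers, the deposited probe table holds an intensity per probe (the mean over its beads), bead counts, bead standard errors and a detection p-value, without normalisation between arrays. A deposited gene-level table holds log2 values, also not normalised, and a further table holds log2 values processed by the authors, whose columns share a median of 5.53 and whose normalisation target is unknown. Partek is named in the submitters' processing notes, with no version. The software of the scanner was not given in the sources used here.

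The probe table carries no gene names. A gene-level row was taken to hold the neighbouring probes whose mean signal gave its log2 value on all 6 arrays (within 8e-06, or 6.2e-05 at values of 10 and over), which linked 45277 of 45281 probes. Names were updated through RefSeq (GRCm38.p6). The files name no genome build, and coordinates are those of the RefSeq promoter table. Background was corrected by normexp from the detection p-values (offset 16), followed by quantile normalisation and log2, in limma 3.58.1 under R 4.3.3. The offset and the background make folds of dim genes too small. Probes detected on 3 or more arrays were kept (21395), each gene was represented by its brightest kept probe, and groups were compared with lmFit and eBayes over 14713 genes. Sequences were searched with Python 3.11.15.

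Groups and replicate numbers come from the sample titles. The kinesins, their classes, the partner lists and the marker lists were chosen with earlier results of these data known. Every kinesin row is named. Values per array are given for Kif11, Kif20a, Kif23 and Kif5b, for called kinesins and for up to 4 more per class by smallest p. Partner lists show called members or the 2 with the smallest p, and marker lists show Kit, Etv1 and called genes. Genes beyond that rule, such as Racgap1, Tubb5, Kif5c, Kifc5b, Kif18b and Kif20b, were chosen after their values were seen. There were 17 alternatives to the fit: background correction, scaling, offset, detection filter, use of several probes, both other deposited tables, array weights, an intensity trend, a replicate block and each array left out. The test of every kept probe was added after seeing the data. The number of arrays limits the precision.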

Additional observations from a re-analysis of the deposited data

How the results depend on the processing

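The lower means of the 8 mitotic kinesins held in all 17 alternatives. Their median log2 change ranged between -1.02 and -0.70 when 1 array was left out, and was -0.52 in the authors' processed values and -0.65 with array weights. The transport median ranged between 0.0721 and 0.19 when 1 array was left out, with 0.10 for genes detected on all 6 arrays and 0.26 with array weights. Against 0 kinesins called lower, 3 were with the mean of a gene's kept probes (Kif18a, Kif23 and Kif4). That fit called 2.78% of all genes, against 1.58% in the main fit. With every kept probe tested, 3 of the 25 kinesins were called lower, where 1.69% of all kept probes were. In the gene-level table (2.6% of genes called), in the authors' processed values (2.62%) and with an intensity trend (2.92%) 1 was, each time Kif23. With array weights, whose estimation stopped before it converged, 12 were, in a fit that called 7589 genes (51.6%). When 1 array was left out 0 to 4 were, with 4 only without vehicle 2, in a fit that called 9.4%. Against 2 called higher, 1 was for genes detected on all 6 arrays (1.49% of genes called), in the gene-level table and in the processed values. Each time it was Kifc2. Without a detection filter 0 were (0 genes called by limma, 5184 at an unadjusted p under 0.05). With array weights 8 were, and when 1 array was left out 0 to 3 were, the 3 in the fit without vehicle 2. With the replicate number as a block, 0 kinesins were called higher and 0 genes in all (2902 at an unadjusted p under 0.05). Same-numbered samples correlated at -0.308 to 0.019 in their deviations, so the numbers were not taken to pair the samples. Of the spindle partners 0 to 10 were called lower when 1 array was left out, and of the tubulins 0 to 2. The sign turned in 3 kinesins with small changes. Kif27 ranged from -0.40 to 0.11 when 1 array was left out, positive only without vehicle 2, where its other kept probe took over as the brightest. Kif3a ranged from -0.00598 to 0.23, negative only without imatinib 1. Kifc3 had -0.0258 in the gene-level table and -0.0147 in the processed values, and ranged from -0.0647 to 0.12 when 1 array was left out. The cause was not tested for the others. The 22 kinesins detected on all 6 arrays are measured more firmly than Kif5a, Kif9 and Kif27, which lie near background.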
